A study of Mus musculus with 25 samples.

Results

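The libraries described here hold ribosome-associated RNA of spinal cord astrocytes from mice with a GfapCre-driven deletion of the transcription factor gene Stat3, taken 24 h after lipopolysaccharide (LPS), beside the same material from mice that had no injection. They are 7 of the 25 libraries of the series, chosen by genotype and treatment: 4 Stat3cKO LPS libraries and 3 Stat3cKO uninjured libraries. The deposited Stat3cKO table lists 11712 genes, and 11709 of them had enough counts to be tested. The series asks how astrocyte responses to LPS and to spinal cord injury depend on transcription factors and chromatin regulators.

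Stat3cKO mice carried GfapCre, Ribotagfl/fl and Stat3fl/fl on the strain labelled C57BL6. GfapCre places the Cre recombinase under the promoter of Gfap, the gene of an astrocyte filament protein, and Ribotag is a floxed allele that adds an HA tag to a ribosomal protein wherever Cre has acted. LPS was injected intraperitoneally at 5 mg/kg, and the uninjured mice had the treatment label None, so no group controls for the injection itself. The WT mice of the last comparison carried GfapCre and Ribotag alone, with 4 libraries after the same LPS dose and 4 uninjured. All of these groups therefore share GfapCre and the tagged ribosome. Thoracic spinal cord was frozen and tagged ribosomes were pulled down through HA. Any cell in which the Gfap promoter has been active can carry the tag, and a pull-down can retain RNA of other cells. The labels give no age, sex or batch, and they do not say whether each library is 1 mouse, so p-values measure only the spread between these libraries.

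LPS is a cell wall component of Gram-negative bacteria that is sensed by Toll-like receptors and sets off NF-kB signalling and interferon production. Interferons act through JAK kinases on STAT factors, which switch on antiviral, antigen presentation and GTPase genes, while cytokines of the interleukin-6 family act through the receptor gp130 on STAT3. In astrocytes STAT3 is known for its part in reactive gliosis, the state in which these cells enlarge, make more filament protein and secrete acute phase proteins.

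The 7 libraries held between 62803836 and 91419161 counts each. Across genes, log2 levels correlated at 0.865 to 0.931 between libraries of the same group and at 0.784 to 0.840 between groups. Every pair of libraries in a group differed by far more than sampling noise (chi-square per degree of freedom 186 to 649.9). The ribosomal RNA precursor entry Rn45s took 53118, 71851, 39068 and 55515 CPM in LPS libraries and 35278, 58499.9 and 43011 CPM in uninjured libraries, and the groups overlapped. Within the LPS group, LPS 1 and 4 were the 2 highest of the 4 in 286 of the 834 genes that rose (34.3%) and LPS 2 and 3 in 166 (19.9%). All 12 astrocyte markers were read in every library, and their summed level in CPM, counts scaled to library size, was 56239 to 65947 CPM in LPS libraries and 63797 to 66192 CPM in uninjured libraries. P2ry12, Tmem119 and Cx3cr1 of microglia are not among the genes listed, nor is any neutrophil, B cell or erythrocyte marker of the lists used.

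Stat3 itself, the floxed gene, was read in every library. It stood at 297, 116, 85.0 and 197 CPM in Stat3cKO LPS libraries 1 to 4, against 8.56, 19.8 and 7.89 CPM in Stat3cKO uninjured libraries 1 to 3. The 2 groups did not overlap, and the level was higher after LPS (log2 3.85 ± 0.51, adjusted p = 0.00108; log2 fold change with its standard error, edgeR quasi-likelihood test, p adjusted over all genes by Benjamini and Hochberg). WT astrocytes had 163, 336, 477 and 259 CPM after LPS and 139.6, 93.8, 138 and 94.2 CPM uninjured. Every Stat3cKO uninjured library lay below every WT uninjured library. The WT values are on the scale of the fit of all 15 libraries. These are counts over the whole gene (chr11:100885098-100939540, GRCm38), which do not show whether the floxed exons were read, and cells that escaped Cre and RNA of other cells cannot be told apart from shortened transcripts.

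After LPS, 1237 of 11709 genes (10.6%) differed at an adjusted p under 0.05, with 834 higher (7.12%) and 403 lower (3.44%). In 1232 of the 1237 the 2 groups of libraries did not overlap (10.5% of tested genes; 14.6% did not overlap with LPS higher and 12.7% with LPS lower, called or not). Of the rises, 66 (0.564% of tested genes) had no count in any uninjured library. Higher genes made up 67.4% of the calls, and 55.8% with upper-quartile scaling, which moved the median of all genes by -0.10 on the log2 scale, against -0.01 with the scaling used here. Leaving out any 1 uninjured library cut the calls to between 657 and 748, with 508 to 584 genes higher and 148 to 164 lower, whereas the fits without 1 LPS library gave 914 to 1275. Interferon-inducible GTPases and antiviral effectors were the lists with the largest share of rises, and G-protein coupled receptors and the water channel and gap junction list those with the largest share of falls, among lists with 9 or more members tested. In bulk material of this kind, fewer cells of a type and less RNA per cell cannot be told apart. How the authors chose the genes listed in their table is not given in the sources used here, and a gene silent in uninjured tissue may be listed only because it was read after LPS. For this reason the count over members with at least 1 CPM on average in uninjured libraries is given beside each list count below that it changes; over all tested genes with that level, 6.14% rose and 3.53% fell.

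**Figure D1:**
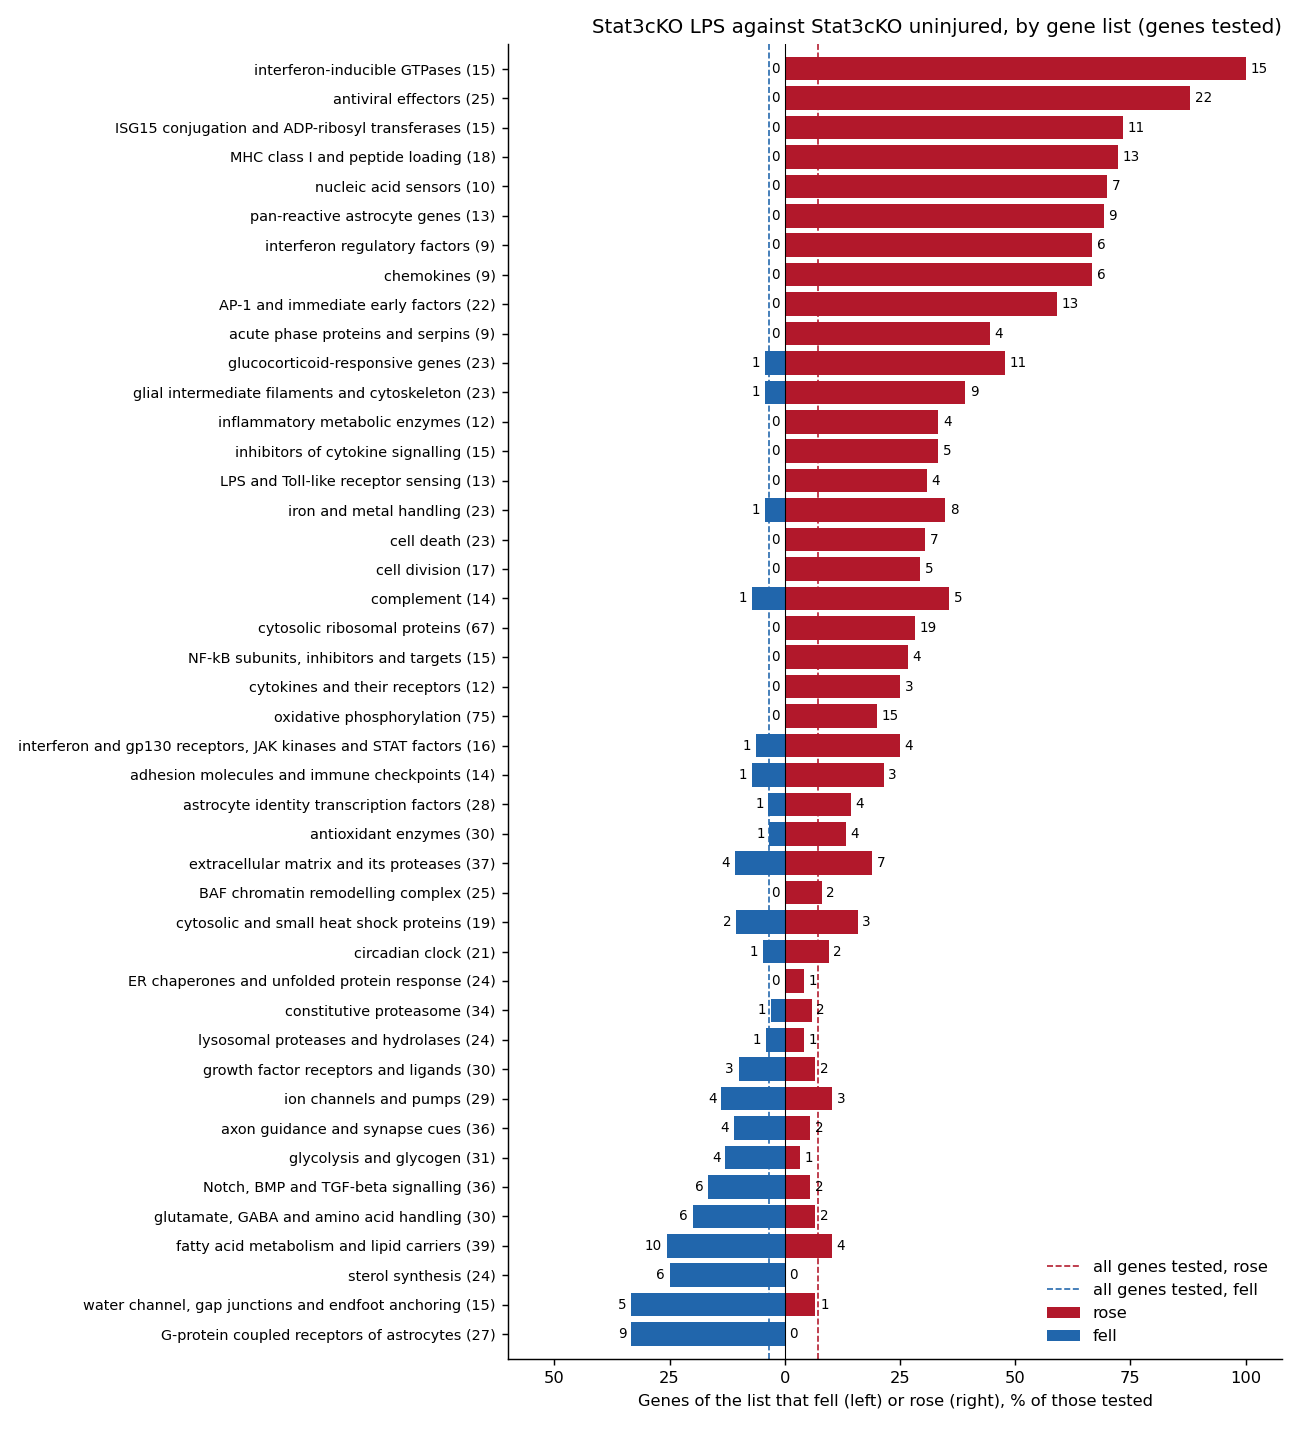
Share of each gene list that rose (red, right) or fell (blue, left) in Stat3cKO LPS against Stat3cKO uninjured libraries, in percent of the members tested (number in brackets after the name), with counts at the bar ends; lists with 9 or more members tested are shown. Dashed lines mark the shares over all tested genes, 7.12% for rises and 3.44% for falls. All 15 interferon-inducible GTPases rose, and G-protein coupled receptors had 9 falls and no rise.

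The interferon-inducible GTPases, which coat and break open the compartments that intracellular microbes live in, rose in 15 of 15 cases, with a median log2 change of 8.05 against -0.01 over all genes. Over the 7 members with at least 1 CPM uninjured, 7 rose. Igtp (Irgm3) was read at 1260.2, 1462, 1475 and 823 CPM in LPS libraries 1 to 4, against 14.3, 10.6 and 8.70 CPM in uninjured libraries 1 to 3. No LPS library came within an order of magnitude of the uninjured ones (log2 6.81 ± 0.31, adjusted p = 8.13e-07). Irgm1, a regulator of the same GTPase family, stood at 1929, 948, 515 and 1679.6 CPM after LPS and at 13.1, 4.58 and 15.8 CPM uninjured (log2 6.83 ± 0.63, adjusted p = 0.000103). For Irgm1 the LPS libraries 1 and 4 were well above 2 and 3, which was not the case for Igtp. Ifi47 had 319, 92.7, 64.7 and 304 CPM after LPS and between 0.0107 and 0.0242 CPM uninjured (log2 13.41 ± 0.96, adjusted p = 2.36e-05). Gbp4, a guanylate-binding protein gene, had 12.7, 11.6, 32.6 and 8.17 CPM after LPS and no count in any uninjured library, which makes it at least 1359-fold higher when the uninjured group is set at a floor of 3 counts in all. Gbp, Irgm and Tgtp genes have close copies, and how reads shared between copies were counted is not given in the sources used here.

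The antiviral effectors, which block viral RNA, translation and budding, rose in 22 of 25 cases (median log2 5.66), and in 11 of the 12 that had at least 1 CPM uninjured. Ifit3, which works with Ifit1 in binding foreign RNA, was read at 1618, 1065, 659.8 and 1654 CPM in LPS libraries and 19.4, 18.9 and 35.9 CPM in uninjured libraries (log2 5.66 ± 0.42, adjusted p = 2.66e-05). The lowest LPS library was still far above the highest uninjured one. Ifit1 had 511, 145, 65.2 and 499.6 CPM after LPS, against 0.0121 to 0.0533 CPM uninjured (log2 13.13 ± 1.09, adjusted p = 5.15e-05). Libraries 1 and 4 again carried the most. Ifi44 had 196, 402, 231 and 121 CPM after LPS and 0 to 0.0440 CPM uninjured (log2 13.68 ± 0.75, adjusted p = 3.58e-06), and here library 2 was the highest. Cmpk2, a mitochondrial nucleotide kinase gene next to the antiviral gene Rsad2 and induced with it, stood at 1039.8, 868, 639 and 817 CPM after LPS and 42.2, 38.7 and 29.8 CPM uninjured (log2 4.51 ± 0.23, adjusted p = 1.84e-06).

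Genes that are switched on together by interferon often carry short DNA elements near their start: the interferon-stimulated response element (ISRE), read by complexes that hold STAT2 and IRF9, and the gamma-activated site (GAS), read by dimers of STAT factors, STAT3 among them. The 250 bases before the RefSeq start (GRCm38.p6) are given for 3 genes that rose more than in WT and 2 that rose less, written in the direction of transcription. Capitals mark matches on either strand to the ISRE core, searched as GAAA, any 2 bases and GAAA again, or to the GAS core TTCNNNGAA. Igtp lies at chr11:58199306-58199555, plus strand, Ifit1 at chr19:34640639-34640888, plus strand, Cxcl10 at chr5:92348890-92349139, minus strand, Lcn2 at chr2:32387740-32387989, minus strand, and Serpina3n at chr12:104406458-104406707, plus strand.
Igtp: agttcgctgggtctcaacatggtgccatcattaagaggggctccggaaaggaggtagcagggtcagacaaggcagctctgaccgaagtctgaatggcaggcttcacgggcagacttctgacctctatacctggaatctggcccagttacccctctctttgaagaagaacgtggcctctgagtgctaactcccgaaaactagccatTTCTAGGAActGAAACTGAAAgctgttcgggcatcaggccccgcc
Ifit1: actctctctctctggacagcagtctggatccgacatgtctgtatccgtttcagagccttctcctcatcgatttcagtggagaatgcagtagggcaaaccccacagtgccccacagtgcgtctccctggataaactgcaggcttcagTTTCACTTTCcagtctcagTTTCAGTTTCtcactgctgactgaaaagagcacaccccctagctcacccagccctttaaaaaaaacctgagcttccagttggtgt
Cxcl10: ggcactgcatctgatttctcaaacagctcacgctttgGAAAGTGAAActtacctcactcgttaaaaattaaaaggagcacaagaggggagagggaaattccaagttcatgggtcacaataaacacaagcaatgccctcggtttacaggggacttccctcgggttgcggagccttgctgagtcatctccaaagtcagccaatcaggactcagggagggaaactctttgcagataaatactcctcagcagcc
Lcn2: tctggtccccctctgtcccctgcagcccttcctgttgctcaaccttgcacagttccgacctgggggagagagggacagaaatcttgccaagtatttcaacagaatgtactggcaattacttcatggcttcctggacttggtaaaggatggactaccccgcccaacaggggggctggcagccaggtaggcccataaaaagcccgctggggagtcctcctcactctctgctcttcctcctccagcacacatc
Serpina3n: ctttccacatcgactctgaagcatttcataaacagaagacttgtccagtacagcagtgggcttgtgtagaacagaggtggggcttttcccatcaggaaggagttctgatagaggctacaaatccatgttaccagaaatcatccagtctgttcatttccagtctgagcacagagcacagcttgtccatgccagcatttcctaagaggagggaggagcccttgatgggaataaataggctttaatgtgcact
Igtp had a GAS match 45 to 37 bases before the start and an ISRE match 34 to 25 bases before it, which did not overlap. Ifit1 had 2 ISRE matches on the opposite strand, at 104 to 95 and 85 to 76 bases. Cxcl10 had 1 ISRE match on the strand as written, at 213 to 204 bases. No match to either core was in the windows of Lcn2 and Serpina3n, which says only that these letters are not there. The genes printed do not stand for their groups. Of the genes with a higher response than in WT, 25 have a promoter in the RefSeq table. The ISRE core was in 7 of these 25 (28%) and the GAS core in 5 (20%). Of the genes with a lower response 6 have a promoter there, and 0 held either core.

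The ISRE core was present in 53 of the 624 genes that rose and have a promoter in the RefSeq table (8.49%). It was present in 7 of 295 that fell (2.37%), in 225 of 8882 tested genes (2.53%) and in 821 of all 27025 promoters (3.04%). Of the GTPase genes 10 have a promoter there, and 9 of them held the ISRE core and 6 the GAS core. Among 20 antiviral effector promoters 10 held the ISRE core. Of the other lists searched, it was in 3 of 13 class I, 3 of 12 ISG15 and ADP-ribosyl transferase and 6 of 49 cytosolic ribosomal protein promoters. It was in 1 of 17 AP-1 and immediate early, 1 of 17 sterol synthesis and 0 of 22 G-protein coupled receptor promoters. GAS matches were in 8.65% of the genes that rose, 4.75% of those that fell, 5.78% of tested genes and 7.18% of all promoters, and a kappaB motif, searched as GGGA, any base and TTTCC, was in 0.801%, 0.339%, 0.270% and 0.337%. A letter match describes the sequence and is not a bound site.

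Class I antigen presentation, by which cells display peptides to CD8 T cells, rose in 13 of 18 genes (median log2 3.33), and in 10 of 14 with at least 1 CPM uninjured. The class I gene H2-Q4 had 857, 1023, 761 and 978 CPM after LPS and 16.9, 13.1 and 2.52 CPM uninjured (log2 6.39 ± 0.60, adjusted p = 0.000131). B2m, the light chain shared by all class I molecules, had 1992, 2641, 2214 and 1550.4 CPM in LPS libraries and 399.8, 457 and 370.0 CPM in uninjured libraries (log2 2.36 ± 0.19, adjusted p = 4.19e-05). Library 4 was the lowest LPS library for B2m and library 2 the highest. H2-Q5 and H2-T24 had no count uninjured and were at least 651-fold and 404-fold higher, and class I genes share much of their sequence. The immunoproteasome, which cuts proteins into peptides suited to class I, rose in 5 of 6 genes (4 of 5 with at least 1 CPM uninjured). Its catalytic subunit gene Psmb8 had 281, 448, 352 and 193 CPM after LPS and 5.82, 3.18 and 0.394 CPM uninjured (log2 6.67 ± 0.81, adjusted p = 0.00063), and Psmb9 had 147, 155, 151 and 101 CPM and 1.86, 0.0294 and 0.724 CPM (log2 7.30 ± 0.90, adjusted p = 0.000687). In the standard proteasome 2 of 34 genes rose and 1 fell, shares of 5.88% and 2.94% that lie near those over all genes. Psma7 and Psmb2 were higher (Psmb2 log2 1.54 ± 0.27, adjusted p = 0.00577), 1 of them without any 1 uninjured library, and Psmd5, an assembly chaperone gene, lower (log2 -1.35 ± 0.30, adjusted p = 0.0177).

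Of 7 class II genes, which serve antigen display to CD4 T cells and belong mainly to microglia, macrophages and other professional presenting cells, 2 rose. H2-Aa had 16.6, 24.0, 18.1 and 6.08 CPM after LPS and no count uninjured, at least 1304-fold higher. Cd74, the class II invariant chain, had 54.8, 78.8, 36.0 and 18.0 CPM after LPS and 1.91, 0 and 0.0107 CPM uninjured (log2 6.18 ± 1.52, adjusted p = 0.027). None of the 4 class II genes with at least 1 CPM uninjured passed the test. Beside these, 2 of 8 microglia markers rose and 1 fell, with a median log2 change of 2.58. Their sum was 199 to 265 CPM after LPS and 139.9 to 208 CPM uninjured. The 2 macrophage markers summed to 10.8 to 21.8 CPM after LPS and 0.0484 to 1.81 CPM uninjured. The part of such cells in the class II rises was not tested.

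Nucleic acid sensors rose in 7 of 10 cases (5 of 7 with at least 1 CPM uninjured). Zbp1, a sensor of Z-form nucleic acid, had 28.6, 26.2, 16.6 and 9.32 CPM after LPS and a single count among the uninjured libraries, a ratio of 4763 (854 to 188152), the bracket being a 95% interval for counting error. Nlrc5, the activator of class I genes, had 46.1, 35.9, 33.8 and 28.2 CPM after LPS and 0, 1.13 and 0 CPM uninjured (log2 6.61 ± 1.52, adjusted p = 0.0197). In the list of interferon regulatory factors, the transcription factors that relay sensing into interferon genes, 6 of 9 rose (3 of 5). They were Irf1, Irf5, Irf7, Irf8, Irf9 and Nmi, the last of which is not itself such a factor. Irf7 had 209, 119, 105 and 171 CPM after LPS and 0.0121, 0.0294 and 1.47 CPM uninjured (log2 8.17 ± 1.21, adjusted p = 0.0022), while Irf5 had 48.0, 9.02, 9.34 and 22.6 CPM after LPS and 2 counts uninjured, a ratio of 2542 (703 to 20994). Among genes for the ubiquitin-like protein ISG15, its ligases and ADP-ribosyl transferases, 11 of 15 rose (10 of 14 with at least 1 CPM uninjured). Isg15 had 380.2, 289.7, 172 and 227 CPM after LPS and 2.18, 0.0734 and 3.01 CPM uninjured (log2 7.23 ± 0.92, adjusted p = 0.000819), and Parp14 had 120.5, 69.8, 92.9 and 80.6 CPM after LPS and 0.0107 to 0.0363 CPM uninjured (log2 12.01 ± 0.49, adjusted p = 4.73e-07).

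Receptor, JAK and STAT genes were mostly not called, with 4 rises and 1 fall among 16 (3 rises and 1 fall among 15 with at least 1 CPM uninjured). Stat2, which pairs with IRF9, had 57.7, 81.8, 114 and 57.1 CPM after LPS and 10.4, 9.07 and 8.05 CPM uninjured (log2 3.08 ± 0.32, adjusted p = 0.000244), and library 3 was the highest. The kinase gene Jak2 rose (log2 1.34 ± 0.35, adjusted p = 0.036), and Stat3 is given above. Osmr, the oncostatin M receptor chain that signals with gp130, had 50.8, 14.1, 28.2 and 41.1 CPM after LPS and 0.0107 to 0.0605 CPM uninjured (log2 10.11 ± 0.85, adjusted p = 5.46e-05). Il6st, which encodes gp130 itself, had 255, 145, 222 and 239.5 CPM after LPS and 394, 370.2 and 361 CPM uninjured and fell (log2 -0.80 ± 0.19, adjusted p = 0.0258). Of 15 inhibitors of cytokine signalling 5 rose (4 of 13 with at least 1 CPM uninjured), but only 1 to 3 without any 1 library other than LPS 3. Usp18, which dampens interferon receptors, had 338, 145, 49.5 and 260.1 CPM after LPS and 2.13, 0.0587 and 0.0426 CPM uninjured (log2 8.05 ± 1.34, adjusted p = 0.00429). Socs3, a STAT3-induced inhibitor of gp130 signalling, had 38.6, 10.7, 5.60 and 67.6 CPM after LPS and 1.10, 0.0440 and 2.98 CPM uninjured (log2 4.47 ± 1.25, adjusted p = 0.0466). All 5 inhibitors that rose were highest in LPS 1 and 4. Calls lost on leaving out a library (those libraries; highest adjusted p) were Cd74 (LPS 1, 2 and uninjured 2, 3; up to 0.0735), Nlrc5 (LPS 1; up to 0.0523), Psmd5 (uninjured 1, 2; up to 0.0817), Il6st (uninjured 1, 2, 3; up to 0.0995) and Socs3 (LPS 1, 2, 4 and uninjured 1, 2, 3; up to 0.156).

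Chemokines, the secreted proteins that draw leukocytes, had 6 rises among 9 members tested, out of 22 on the list. Their median log2 change was 11.27, or 8.24 with the member absent from uninjured libraries at its bound, and 1 of the 4 with at least 1 CPM uninjured rose. Cxcl10, which attracts T cells, had 6312, 1316, 947 and 7885 CPM after LPS and 0.339, 0.734 and 0.352 CPM uninjured (log2 13.10 ± 1.11, adjusted p = 5.46e-05). Among genes that rose, Mt1, Gfap, Glul and Cxcl10 gained the most in mean CPM. Ccl2, which attracts monocytes, had 499, 9.78, 9.76 and 614 CPM after LPS and 0.0242, 0.103 and 0 CPM uninjured (log2 12.82 ± 2.17, adjusted p = 0.00462). For Ccl2 libraries 1 and 4 were far above libraries 2 and 3, and all 4 were above the uninjured libraries. Of 12 cytokine and receptor genes 3 rose (2 of 11 with at least 1 CPM uninjured). Csf1, the growth factor of microglia, had 437, 141, 171 and 390.2 CPM after LPS and 56.5, 45.5 and 43.2 CPM uninjured (log2 2.56 ± 0.40, adjusted p = 0.00302), and Il1rn, the interleukin-1 receptor antagonist, had 6.19, 2.59, 0.973 and 7.05 CPM after LPS and none uninjured, at least 334-fold higher.

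Among adhesion and checkpoint genes 3 of 14 rose and 1 fell, and with at least 1 CPM uninjured 1 of 11 rose and 1 fell. Cd274, which encodes the T cell inhibitory ligand PD-L1, had 2156, 884, 780.4 and 1806 CPM after LPS and 2.49, 0.308 and 1.90 CPM uninjured (log2 9.80 ± 0.81, adjusted p = 5.05e-05). Cd40, a costimulatory receptor, had 6.02, 2.78, 3.61 and 4.10 CPM after LPS and no uninjured count, at least 328-fold higher. Icam1 was the other rise, and the neural adhesion gene Ncam1 fell (log2 -0.61 ± 0.15, adjusted p = 0.025).

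Some sensing and signalling genes rose too. Of 13 Toll-like receptor pathway genes 4 rose, and only 1 or 2 did without LPS 1, LPS 4 or any uninjured library. Tlr2, a receptor for bacterial lipoproteins, had 197, 58.7, 66.6 and 213 CPM after LPS and 21.6, 13.0 and 11.4 CPM uninjured (log2 3.12 ± 0.52, adjusted p = 0.00409). Myd88, the shared adaptor, had 127, 13.4, 34.9 and 98.4 CPM after LPS and 12.4, 7.81 and 1.97 CPM uninjured (log2 3.21 ± 0.82, adjusted p = 0.0317). NF-kB subunits, inhibitors and targets rose in 4 of 15 cases, and in 2 without uninjured 2 or uninjured 3. The feedback inhibitor Nfkbia had 311, 229, 154 and 513 CPM after LPS and 66.7, 85.5 and 102 CPM uninjured (log2 1.83 ± 0.37, adjusted p = 0.0104), and the nuclear cofactor Nfkbiz had 252, 47.1, 16.9 and 234 CPM and 9.02, 2.74 and 6.82 CPM (log2 4.47 ± 0.92, adjusted p = 0.0122). AP-1 and immediate early factors, which are made within minutes of many stimuli, rose in 13 of 22 cases (11 of 18 with at least 1 CPM uninjured). Maff had 261, 34.6, 23.3 and 336 CPM after LPS and 0.0363, 2.47 and 3.59 CPM uninjured (log2 6.33 ± 1.38, adjusted p = 0.016), and Fosl1 had 33.3, 3.12, 0.172 and 20.9 CPM after LPS and none uninjured, at least 1084-fold higher. In both genes libraries 1 and 4 were far above 2 and 3. Without 1 library, calls were lost for Ncam1 (LPS 3 and uninjured 1, 2, 3; up to 0.117), Myd88 (LPS 1, 4 and uninjured 1, 2, 3; up to 0.108), Nfkbia (uninjured 1; up to 0.0571), Nfkbiz (uninjured 2, 3; up to 0.0557) and Maff (uninjured 2, 3; up to 0.0682).

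The LPS libraries thus differed from each other by gene group. Libraries 1 and 4 were the 2 highest in 12 of 13 AP-1 and immediate early genes that rose, in 4 of 4 Toll-like receptor pathway genes and in 5 of 5 inhibitors. The same held for 5 of 6 genes of the interferon regulatory factor list, which includes Nmi, and for 4 of 6 chemokines. The median ratio of libraries 1 and 4 to libraries 2 and 3 was 4.46 for the AP-1 group and 3.63 for the chemokines. In class I antigen presentation libraries 1 and 4 were the 2 highest in 0 of 13 genes and libraries 2 and 3 in 8, with a median ratio of 0.753, and in the immunoproteasome in 0 and 4 of 5 genes (0.647). Among all genes that rose the median ratio was 1.08. No test was made of this pattern, since it was seen in these same libraries, and the labels name nothing that separates libraries 1 and 4 from 2 and 3.

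**Figure D2:**
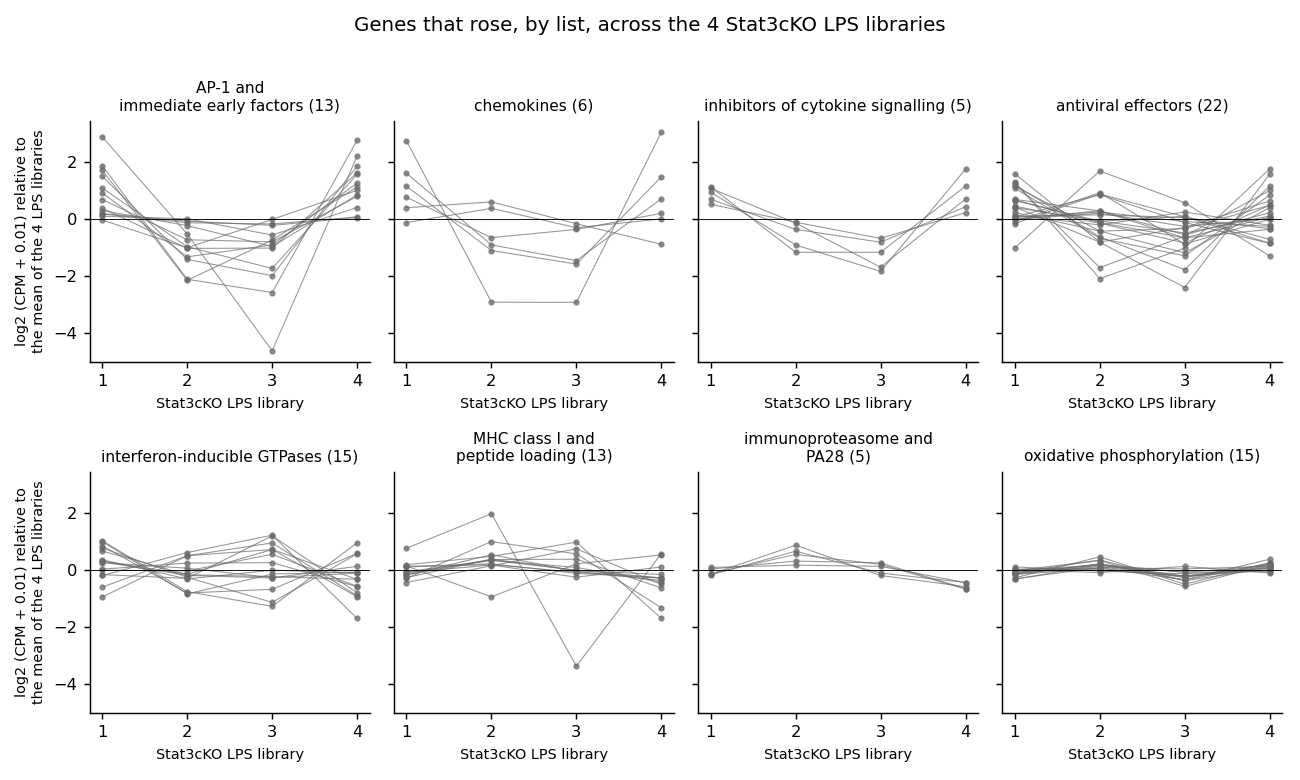
Genes that rose, in 8 lists (number of genes in brackets), across the 4 Stat3cKO LPS libraries; each line joins the values of 1 gene and the vertical axis is log2 of CPM + 0.01 relative to the gene's mean over these 4 libraries. The libraries are replicates with no order. Immediate early factors, chemokines and inhibitors were higher in libraries 1 and 4, and class I and immunoproteasome genes were not.

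Some acute phase and secreted defence genes were higher as well. Lcn2, which encodes the iron-siderophore trapping protein lipocalin 2, had 44.2, 70.7, 137 and 38.4 CPM after LPS and 0.121, 0.0881 and 0.991 CPM uninjured (log2 7.46 ± 0.96, adjusted p = 0.000903), with library 3 the highest. Serpina3n, a secreted protease inhibitor, had 188, 296, 323 and 212 CPM after LPS and 47.4, 33.4 and 36.2 CPM uninjured (log2 2.71 ± 0.25, adjusted p = 0.000109). Saa3, a serum amyloid gene, had 33.2, 129, 66.0 and 38.9 CPM after LPS and 2 counts uninjured, a ratio of 8263 (2287 to 68237). Of 9 acute phase and serpin genes tested, out of 28 on the list, 4 rose (2 of 6 with at least 1 CPM uninjured), among them Serpina3f (log2 10.53 ± 1.73, adjusted p = 0.00398). In the complement list 5 of 14 rose and 1 fell (2 and 1 of the 10 with at least 1 CPM uninjured), and 3 rose without LPS 1, LPS 2 or LPS 3. C3ar1, the C3a receptor, had 4.47, 2.82, 1.95 and 3.63 CPM after LPS and none uninjured, at least 256-fold higher. C3, the central component, had 161, 197, 246 and 61.0 CPM after LPS and 86.2, 54.1 and 59.8 CPM uninjured and missed the threshold (log2 1.32 ± 0.40, adjusted p = 0.0615; 0.00350 to 0.194 with 1 library left out). Of the 7 fits with 1 library left out, C3 passed in the fit without LPS 4, the LPS library that lay within the uninjured range. With all 7 libraries C3 also passed under DESeq2 and with a spread shared with the WT libraries. The authors' deposited false discovery rate for C3 was 0.00628. Clu, an abundant astrocyte chaperone of the complement list, fell (log2 -0.49 ± 0.09, adjusted p = 0.00833).

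Metal and redox genes moved in part. Mt1, a zinc- and copper-binding metallothionein, had 8814, 9924, 6729 and 9578 CPM after LPS and 1642, 2158 and 2029 CPM uninjured (log2 2.17 ± 0.15, adjusted p = 2.22e-05). No LPS library came near the uninjured range. Of 23 iron and metal genes 8 rose and 1 fell, and of the 21 with at least 1 CPM uninjured 6 rose and 1 fell. The ferric reductase genes went opposite ways: Steap4 had 22.4, 12.4, 5.55 and 24.8 CPM after LPS and 2 counts uninjured, a ratio of 1951 (539.7 to 16112), while Steap3 had 17.4, 13.8, 10.5 and 14.3 CPM after LPS and 64.3, 57.4 and 60.5 CPM uninjured and fell (log2 -2.12 ± 0.26, adjusted p = 0.000687). Of 30 antioxidant genes 4 rose and 1 fell, shares of 13.3% and 3.33% against 7.12% and 3.44% over all genes. The share of falls lies near that over all genes, and the median log2 change of the list was 0.05. Txnip, an inhibitor of thioredoxin, rose (log2 3.58 ± 0.29, adjusted p = 4.48e-05), Gpx3, a secreted peroxidase, rose (log2 2.73 ± 0.57, adjusted p = 0.0134), and Cat, catalase, fell (log2 -0.76 ± 0.15, adjusted p = 0.0107).

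Some enzymes and cell death genes tied to inflammation rose. Irg1, which makes the antimicrobial metabolite itaconate and is known mainly from macrophages, had 5.83, 4.31, 1.02 and 12.2 CPM after LPS and none uninjured, at least 478-fold higher. Ido1, a tryptophan-degrading enzyme, had 0.645, 1.38, 3.82 and 2.87 CPM after LPS and none uninjured, at least 188-fold higher. In this list 4 of 12 genes rose (2 of 10 with at least 1 CPM uninjured), and 2 without any 1 uninjured library. Mlkl, the executor of necroptosis, had 25.4, 18.0, 36.2 and 5.08 CPM after LPS and none uninjured (at least 1712-fold higher), and Casp4, a caspase that binds cytosolic LPS, had 14.3, 5.36, 4.44 and 0.972 CPM after LPS and none uninjured (at least 468-fold higher). Of 23 cell death genes 7 rose (4 of 19 with at least 1 CPM uninjured). Leaving out a library ended the calls of C3ar1 (uninjured 1; up to 0.0511), Clu (uninjured 1, 3; up to 0.0527), Gpx3 (uninjured 1, 3; up to 0.0668), Cat (uninjured 1, 2; up to 0.0571) and Ido1 (LPS 2, 3, 4 and uninjured 1, 2, 3; up to 0.0943).

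Genes of the reactive astrocyte state rose in part. Gfap had 10669, 8669.7, 10223 and 9379 CPM after LPS and 5072, 4680.0 and 5109 CPM uninjured, means of 9735 ± 889 and 4954 ± 238 (SD, n = 4 and 3), and rose (log2 0.97 ± 0.09, adjusted p = 0.000147). Nes, a progenitor filament gene, had 54.9, 48.0, 43.7 and 46.8 CPM after LPS and 7.40, 2.26 and 5.41 CPM uninjured (log2 3.27 ± 0.42, adjusted p = 0.000906). Vim, the companion filament of Gfap, had 259, 186, 199.6 and 174 CPM after LPS and 172, 143 and 143 CPM uninjured and did not pass the test (log2 0.42 ± 0.18, adjusted p = 0.192), although the groups did not overlap. Of 23 filament and cytoskeleton genes 9 rose and 1 fell. The nuclear lamina gene Lmna had 331, 79.2, 81.2 and 380.3 CPM after LPS and 42.1, 39.0 and 42.5 CPM uninjured and rose (log2 2.404 ± 0.55, adjusted p = 0.0201), with libraries 1 and 4 the highest, and the tubulin gene Tuba1a fell (log2 -0.86 ± 0.21, adjusted p = 0.0298). Of the 13 genes known as pan-reactive from other astrocyte studies 9 rose, and 4 of the 8 with at least 1 CPM uninjured. Hspb1, a small heat shock protein, had 33.2, 43.3, 30.7 and 59.3 CPM after LPS and 2.58, 1.39 and 1.91 CPM uninjured (log2 4.41 ± 0.43, adjusted p = 0.000155), and Timp1, an inhibitor of matrix proteases, rose (log2 6.20 ± 1.40, adjusted p = 0.0184).

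Genes known to respond to glucocorticoids, the hormones released in sickness, rose in 11 of 23 cases with 1 fall, and in 6 or 7 without LPS 1, uninjured 1 or uninjured 3. Cdkn1a, a cell cycle inhibitor, had 2349, 1750.5, 1042 and 2734 CPM after LPS and 90.2, 214 and 172 CPM uninjured (log2 3.63 ± 0.39, adjusted p = 0.000272). Map3k6 had 42.8, 24.5, 71.1 and 44.1 CPM after LPS and 0.0242, 3.08 and 0.0107 CPM uninjured (log2 5.47 ± 1.48, adjusted p = 0.0404), and Plin4, a lipid droplet coat gene, had 98.3, 106, 129 and 107 CPM and 5.32, 26.5 and 9.45 CPM (log2 3.00 ± 0.49, adjusted p = 0.00363). Lcat, which esterifies cholesterol on lipoproteins, was the fall (log2 -1.03 ± 0.19, adjusted p = 0.00743). Among 21 clock genes 2 rose and 1 fell: Csnk1e, the clock kinase, was higher (log2 1.27 ± 0.23, adjusted p = 0.00629), as was Per1 (log2 1.75 ± 0.47, adjusted p = 0.0419), and the clock output factor Dbp was lower (log2 -1.13 ± 0.20, adjusted p = 0.00573). The clock shares, 9.52% and 4.76%, compare with 7.12% and 3.44% over all genes. Gadd45b, a stress and growth arrest gene, had 216, 211, 169.6 and 321 CPM after LPS and 17.1, 12.7 and 7.02 CPM uninjured (log2 4.22 ± 0.36, adjusted p = 5.98e-05). It is 1 of the 5 rises, with no fall, among 17 cell division genes, beside Ccnd3, Cdkn1a, Cdkn1b and Gadd45g. The list includes inhibitors of division, so its rises do not mean more division. In the unfolded protein response 1 of 24 genes rose, Atf4 (log2 1.996 ± 0.25, adjusted p = 0.000687), a share of 4.17% against 7.12% over all genes. The calls that did not hold without 1 library were Lmna (LPS 1 and uninjured 1, 2, 3; up to 0.0826), Tuba1a (LPS 2, 3 and uninjured 1, 2, 3; up to 0.109), Timp1 (LPS 2 and uninjured 1; up to 0.0583), Map3k6 (LPS any and uninjured 1, 3; up to 0.0839) and Per1 (LPS 1, 4 and uninjured 1, 2, 3; up to 0.156).

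**Figure D3:**
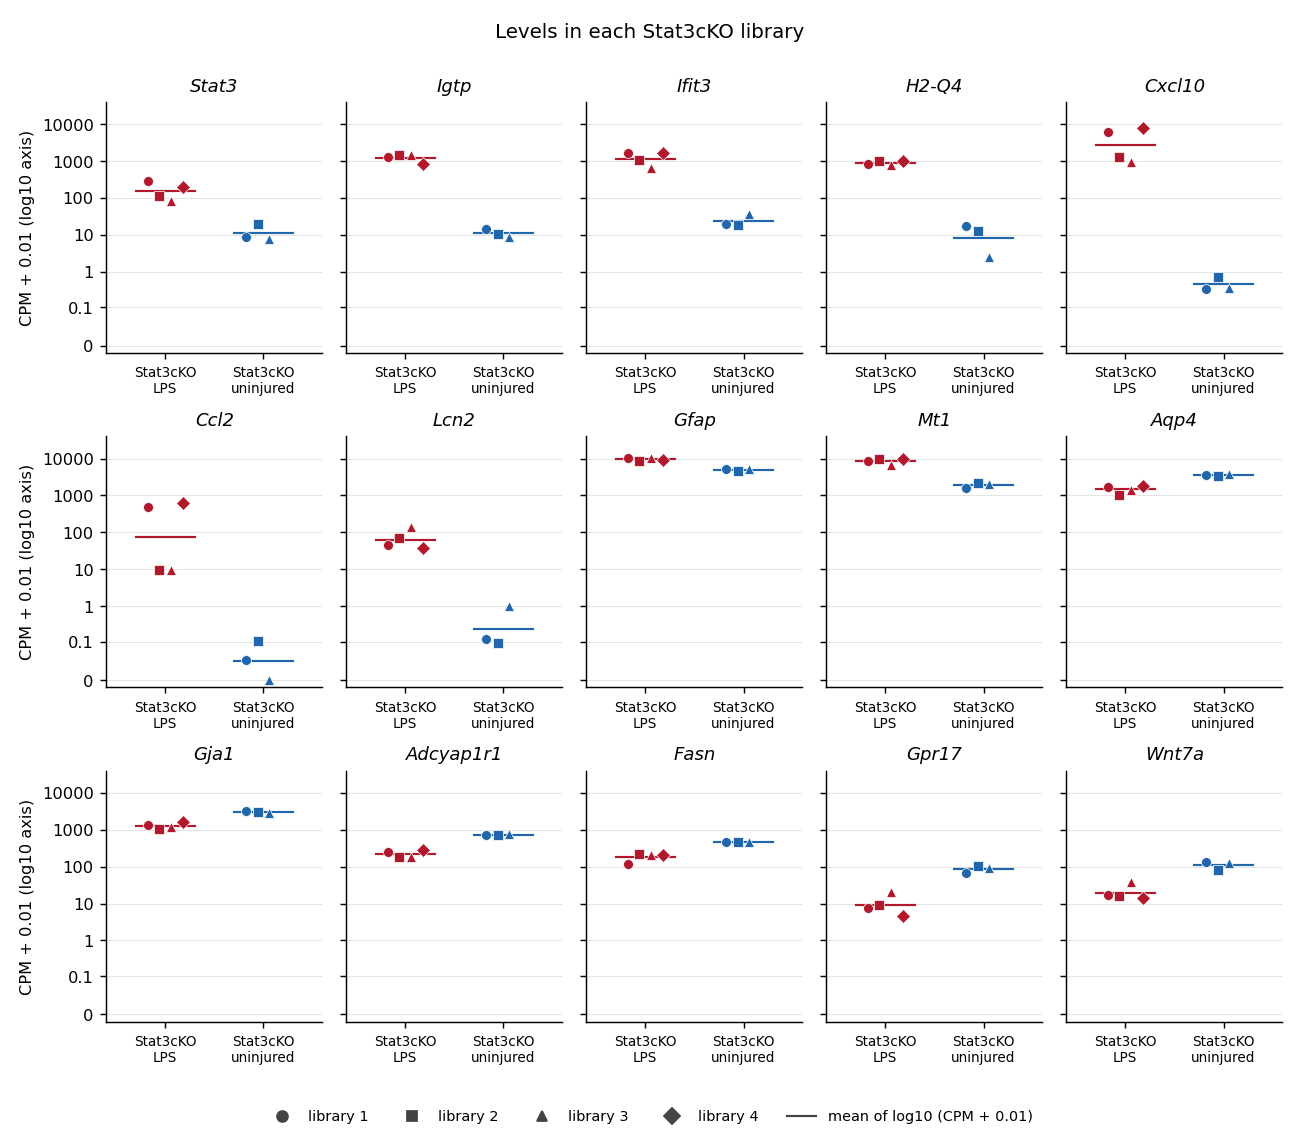
Level of 15 genes in each library, with Stat3cKO LPS libraries (red) left of Stat3cKO uninjured libraries (blue); the axis is log10 of CPM + 0.01, marker shapes give the library and bars the mean of log10 (CPM + 0.01). The groups did not overlap in any of the 15 genes; Gfap stood between 8669.7 and 10669 CPM after LPS, and Aqp4 between 1033 and 1812 CPM.

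Some genes of astrocyte homeostasis fell. Of 15 genes for the water channel, gap junctions and endfoot anchoring 5 fell (3 without uninjured 1) and 1 rose. The water channel gene Aqp4 had 1726, 1033, 1402 and 1812 CPM after LPS and 3674, 3393 and 3809 CPM uninjured (log2 -1.28 ± 0.17, adjusted p = 0.00114). The gap junction gene Gja1 had 1378, 1077, 1216 and 1648 CPM after LPS and 3218, 3028 and 2941 CPM uninjured (log2 -1.20 ± 0.14, adjusted p = 0.000538), whereas Gjb6, the partner connexin 30, had 634, 995, 1139 and 756 CPM after LPS and 499.8, 564 and 537 CPM uninjured and rose (log2 0.72 ± 0.20, adjusted p = 0.0409). Kcnj10, the potassium channel Kir4.1 that clears potassium after firing, had 3288, 2989, 3014 and 4139 CPM after LPS and 5533, 6083 and 6002 CPM uninjured (log2 -0.81 ± 0.12, adjusted p = 0.00243). In these 4 genes no LPS library reached into the range of the uninjured group. Among 29 channel and pump genes 3 rose (1 without uninjured 1, 0 without uninjured 3) and 4 fell (2 without uninjured 3). The pump subunit gene Atp1b2, also an astrocyte marker, did not pass the test (log2 -0.18 ± 0.11, adjusted p = 0.348). The calcium-activated channel Kcnn2 fell (log2 -1.22 ± 0.18, adjusted p = 0.0019), and Lrrc8a, a volume-regulated anion channel subunit, rose (log2 0.86 ± 0.20, adjusted p = 0.0188).

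G-protein coupled receptors, through which astrocytes read neuromodulators and lipids, had 9 falls and no rise among 27 tested (33.3%, against 3.44% of all genes), with a median log2 change of -0.85. Adcyap1r1, the receptor of the neuropeptide PACAP, had 255, 179, 183 and 289 CPM after LPS and 736, 725 and 761 CPM uninjured (log2 -1.71 ± 0.19, adjusted p = 0.000323). Adra2a, an adrenergic receptor, had 18.2, 72.5, 112 and 40.2 CPM after LPS and 247, 187 and 171 CPM uninjured (log2 -1.73 ± 0.47, adjusted p = 0.0423). The remaining falls were in Ednrb, Gpr37, Gpr37l1, Gprc5b, Grm3, Lpar1 and S1pr1. The count was 6 to 11 with 1 library left out.

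Transporters of glutamate, GABA and other amino acids had 6 falls (3 without uninjured 1) and 2 rises among 30. Slc38a3, which exports glutamine, had 314, 228, 216 and 375 CPM after LPS and 618, 594 and 619 CPM uninjured (log2 -1.11 ± 0.20, adjusted p = 0.00588), and the taurine transporter Slc6a6 was higher (log2 1.78 ± 0.49, adjusted p = 0.0443). Glul, glutamine synthetase, had 9696, 11662, 10185 and 10150.3 CPM after LPS and 5220.0, 6529.6 and 6382 CPM uninjured (log2 0.79 ± 0.10, adjusted p = 0.000997). The groups did not overlap. The main glutamate transporter genes Slc1a2 and Slc1a3 were at -0.27 and -0.02 on the log2 scale (adjusted p = 0.0827 and 0.957). Calls lost on leaving out a library were Gjb6 (LPS 2, 3 and uninjured 1, 2, 3; up to 0.15), Lrrc8a (uninjured 1, 3; up to 0.0819), Adra2a (LPS 2, 4 and uninjured 1, 2, 3; up to 0.143) and Slc6a6 (LPS 1, 2, 3 and uninjured 1, 2, 3; up to 0.137). Upper-quartile scaling also ended the calls of Gjb6 and Slc6a6 (adjusted p = 0.0699 and 0.0524).

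Several lipid genes fell. Sterol synthesis, by which astrocytes supply neurons with cholesterol, had 6 falls and no rise among 24 (median log2 -0.66), but 1 fall without uninjured 1 and 3 without LPS 1, LPS 2, uninjured 2 or uninjured 3. Dhcr7, the last enzyme of the pathway, had 72.8, 90.8, 68.8 and 158 CPM after LPS and 338, 241 and 218 CPM uninjured (log2 -1.44 ± 0.29, adjusted p = 0.0115). Of 39 fatty acid and lipid carrier genes 10 fell and 4 rose, and 4 to 6 fell without any 1 uninjured library. Fasn, fatty acid synthase, had 120.0, 222, 212 and 210.1 CPM after LPS and 476, 463 and 466 CPM uninjured (log2 -1.29 ± 0.21, adjusted p = 0.0033). Scd2, a desaturase, had 6272, 5355, 5359 and 6537 CPM after LPS and 9537, 9774 and 9549 CPM uninjured (log2 -0.71 ± 0.09, adjusted p = 0.000971), and Apoe, the main lipid carrier of astrocytes, had 18461, 20139.5, 17143 and 21425 CPM and 26949.9, 24066 and 25236 CPM (log2 -0.40 ± 0.08, adjusted p = 0.0141).

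Of 31 genes of glycolysis and glycogen 4 fell and 1 rose. Pygb, the brain glycogen phosphorylase, fell (log2 -1.25 ± 0.17, adjusted p = 0.00108), as did Pfkfb3, which sets the rate of glycolysis (log2 -1.30 ± 0.23, adjusted p = 0.00629). Pdk2, a pyruvate dehydrogenase kinase, rose (log2 0.66 ± 0.12, adjusted p = 0.00592). The glucose transporter gene Slc2a1 did not pass the test (log2 0.05 ± 0.13, adjusted p = 0.863). The falls numbered 2 without LPS 2 or any 1 uninjured library and 7 without LPS 4. In the lysosomal list 1 of 24 rose, the protease gene Ctss (log2 2.43 ± 0.67, adjusted p = 0.0433), and 1 fell, the cholesterol exporter gene Npc1 (log2 -0.61 ± 0.17, adjusted p = 0.0443). Each is 4.17% of the list, against 7.12% rises and 3.44% falls over all genes. Without 1 library, calls were lost for Dhcr7 (uninjured 1; up to 0.0599), Apoe (uninjured 1, 2, 3; up to 0.0826), Ctss (LPS 1, 2, 4 and uninjured 1, 3; up to 0.139) and Npc1 (LPS 2, 3, 4 and uninjured 1, 2, 3; up to 0.185).

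Some genes for signals between cells changed. Over all tested genes with at least 1 CPM uninjured, 6.14% rose and 3.53% fell. At that level 5.56% of the Notch, BMP and TGF-beta list, 6.9% of the growth factor list and 5.71% of the axon guidance list rose. These shares of rises lie near that over all genes. The shares that fell were 16.7%, 10.3% and 11.4%. In the extracellular matrix list 16.7% rose and 11.1% fell. In the Notch, BMP and TGF-beta list 6 of 36 fell and 2 rose, with 0 or 1 rise without any 1 library other than LPS 3. Hes5, a Notch target that marks neural progenitors and astrocytes, had 1 count in the 4 LPS libraries, against 18.0, 8.42 and 10.6 CPM in uninjured libraries. The ratio was 0.000271 (6.85e-06 to 0.00151, counting error). Bmp7 had 14.98, 11.7, 14.4 and 19.3 CPM after LPS and 41.1, 50.1 and 52.2 CPM uninjured (log2 -1.66 ± 0.28, adjusted p = 0.00455), and Id2, a BMP target, rose (log2 1.02 ± 0.27, adjusted p = 0.0356). Of 30 growth factor genes 3 fell (5 without LPS 3) and 2 rose. Igfbp3, a carrier of insulin-like growth factors, rose (log2 3.58 ± 0.57, adjusted p = 0.0033). Lgi4, a secreted regulator of glial growth and myelination, stood at 66.1, 82.2, 143 and 82.9 CPM after LPS and 318, 303 and 274 CPM uninjured (log2 -1.67 ± 0.25, adjusted p = 0.00218). Among 36 axon guidance and synapse genes 4 fell and 2 rose. The guidance receptor Robo2 fell (log2 -1.23 ± 0.20, adjusted p = 0.00353) and Sema6a rose (log2 0.96 ± 0.27, adjusted p = 0.0461). Without any 1 uninjured library 1 gene of this list fell, and 7 did without LPS 1. The rises numbered 0 or 1 in every fit without 1 library and 0 with upper-quartile scaling. Of 37 extracellular matrix genes 7 rose and 4 fell (6 and 4 of the 36 with at least 1 CPM uninjured), with 0 to 2 falls without LPS 1, LPS 2 or any 1 uninjured library. Tgm2, a crosslinking enzyme, rose (log2 3.06 ± 0.40, adjusted p = 0.000969) and Plod2, a collagen lysyl hydroxylase, fell (log2 -2.08 ± 0.44, adjusted p = 0.0136).

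Astrocyte identity factors had 4 rises and 1 fall among 28, and 1 or 2 rises without any 1 library other than LPS 4. Hopx rose (log2 1.51 ± 0.18, adjusted p = 0.000564), Hoxa5, a positional factor of spinal cord, rose (log2 1.42 ± 0.39, adjusted p = 0.0454), and Sox8 fell (log2 -1.22 ± 0.34, adjusted p = 0.0445). In the BAF remodelling complex 2 of 25 genes rose, Dpf2 (log2 0.78 ± 0.19, adjusted p = 0.0252) and Smarca2 (log2 0.77 ± 0.19, adjusted p = 0.029), and its other ATPase gene Smarca4 did not pass the test (log2 -0.25 ± 0.20, adjusted p = 0.514). The share of rises in the complex, 8%, lies near the 7.12% over all genes, and its median log2 change was -0.04. Leaving out a library ended the calls of Id2 (LPS 1, 4 and uninjured 1, 2, 3; up to 0.13), Sema6a (LPS 1, 2, 3 and uninjured 1, 2, 3; up to 0.163), Plod2 (uninjured 1; up to 0.0697), Hoxa5 (LPS 1, 2, 3 and uninjured 1, 2, 3; up to 0.137), Sox8 (LPS 1, 2, 4 and uninjured 1, 2, 3; up to 0.155), Dpf2 (LPS 1 and uninjured 2, 3; up to 0.0936) and Smarca2 (LPS 1 and uninjured 1, 3; up to 0.122). Upper-quartile scaling also ended those of Sema6a and Hoxa5 (adjusted p = 0.0651 and 0.058).

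The largest falls among genes with a mean of at least 1 CPM after LPS were of mixed kinds. Gpr17, a receptor that marks differentiating oligodendrocyte progenitors, had 7.63, 9.05, 21.4 and 4.52 CPM after LPS and 68.1, 103 and 95.3 CPM uninjured (log2 -3.06 ± 0.47, adjusted p = 0.00254). Ugt8a, which makes the myelin lipid galactosylceramide, had 8.06, 12.2, 21.1 and 5.79 CPM after LPS and 65.7, 62.1 and 52.9 CPM uninjured (log2 -2.35 ± 0.41, adjusted p = 0.00564). Wnt7a, a secreted Wnt known for its action on brain vessels, had 17.4, 16.6, 38.4 and 14.2 CPM after LPS and 135, 81.1 and 129.9 CPM uninjured (log2 -2.42 ± 0.36, adjusted p = 0.00236). The mitochondrial genes Ak4, an adenylate kinase, and Mtfp1, a fission protein, fell (log2 -2.26 ± 0.26, adjusted p = 0.000436; log2 -2.77 ± 0.50, adjusted p = 0.00604). Mtfp1 lost its call with a spread shared with the WT libraries (adjusted p = 0.112). Fam84a fell (log2 -2.49 ± 0.46, adjusted p = 0.00698), as did Lonrf2 (log2 -2.28 ± 0.55, adjusted p = 0.0256). Among the largest rises were also Rnf19b, a ubiquitin ligase, at 706, 162, 128 and 542 CPM after LPS and 15.1, 15.2 and 7.94 CPM uninjured (log2 4.92 ± 0.66, adjusted p = 0.00108), and Cyr61, a matricellular immediate early gene, at 606, 75.3, 32.5 and 905 CPM and 9.36, 19.7 and 21.5 CPM (log2 4.58 ± 1.06, adjusted p = 0.0202). Both were highest in LPS 1 and 4. The calls that did not hold without 1 library were Lonrf2 (LPS 1 and uninjured 1, 2, 3; up to 0.131) and Cyr61 (uninjured 1, 2, 3; up to 0.0931).

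Some genes for the translation and respiration machinery rose. Of 67 cytosolic ribosomal protein genes 19 rose and none fell (median log2 0.95), but 8 to 11 rose without LPS 1, LPS 2 or any 1 uninjured library. Rpl41 had 95.7, 76.7, 75.4 and 88.5 CPM after LPS and 14.9, 13.5 and 14.5 CPM uninjured (log2 2.56 ± 0.22, adjusted p = 6.91e-05), and Rps20 had 51.7, 48.0, 37.1 and 53.9 CPM and 8.44, 15.8 and 9.57 CPM (log2 2.08 ± 0.32, adjusted p = 0.0028). Ribosomal protein genes have many processed copies in the genome that can share reads. Of 75 oxidative phosphorylation genes 15 rose and none fell (median log2 0.28), and 7 or 9 rose without uninjured 3 or uninjured 2. Cox7b had 119, 139, 105 and 173 CPM after LPS and 58.3, 50.9 and 49.4 CPM uninjured (log2 1.34 ± 0.21, adjusted p = 0.00332), and Ndufc1 rose (log2 1.47 ± 0.34, adjusted p = 0.0206). A call lost on leaving out a library was Ndufc1 (LPS 2 and uninjured 2, 3; up to 0.08). Among these 15 genes the ratio of LPS 1 and 4 to LPS 2 and 3 ran from 0.910 to 1.197. The small heat shock genes Cryab, Hspb1 and Hspb6 rose and the chaperone genes Hspa8 (log2 -1.24 ± 0.23, adjusted p = 0.00694) and Hspd1 fell, among 19. The count of rises was 1 without LPS 1, uninjured 2 or uninjured 3, and Hspd1 lost its call in each of the 7 fits without 1 library.

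Markers of other cells moved in several lists. Of 14 oligodendrocyte markers 2 rose, Mbp (5721, 4683, 4523 and 4082 CPM after LPS and 1514, 2139 and 1974 CPM uninjured; log2 1.34 ± 0.15, adjusted p = 0.000403) and Mobp, and Ugt8a fell, the summed level being 9300 to 12350 CPM after LPS and 5845 to 7576 CPM uninjured. Of 14 neuron markers 4 rose, Nefl, Nefm, Rbfox3 and Tubb3, with sums of 839 to 1045 CPM after LPS and 531 to 639 CPM uninjured, and 1 or 2 rose without uninjured 1 or uninjured 3. The neuronal microtubule gene Map2 was at 152, 186, 241 and 197 CPM after LPS and 187, 232 and 183 CPM uninjured (log2 -0.05 ± 0.19, adjusted p = 0.912). Vcan and Bcas1 rose (1 of them without LPS 1, LPS 3, LPS 4, uninjured 1 or uninjured 3) and Gpr17 fell among 8 progenitor markers, whose sum was 1401 to 1897 CPM after LPS and 1599 to 1810 CPM uninjured. Of 6 fibroblast and meningeal markers 1 rose, Ptgds (log2 1.67 ± 0.27, adjusted p = 0.0033), and 1 fell (none without LPS 2, LPS 3 or any 1 uninjured library), with sums of 1017 to 2187 CPM after LPS and 591 to 811 CPM uninjured.

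None of 5 endothelial, 3 pericyte or 6 ependymal markers passed the test, among them Pdgfrb of pericytes (log2 -0.19 ± 0.51, adjusted p = 0.873) and Foxj1 of ependymal cells (log2 -0.997 ± 0.37, adjusted p = 0.123). Nor did Olig1, an oligodendrocyte lineage factor (log2 -0.47 ± 0.18, adjusted p = 0.133). Of 7 Schwann cell markers 1 rose, Mbp, which oligodendrocytes share. Their sum was 5471 to 6892 CPM after LPS and 3893 to 4710 CPM uninjured, and their median log2 change was -0.50. The endothelial markers summed to 477 to 545 CPM after LPS and 465 to 512 CPM uninjured, the pericyte markers to 26.8 to 81.6 CPM after LPS and 36.5 to 49.1 CPM uninjured, and the ependymal markers to 103.0 to 145 CPM after LPS and 139 to 149 CPM uninjured. C1qb and Olfml3 rose and Sall1 fell among 8 microglia markers. Without 1 library other than uninjured 3, 0 or 1 of these markers rose, and the calls lost on leaving out a library included Sall1 (LPS 1, 2, 4 and uninjured 1, 2, 3; up to 0.163). Cd68, a lysosomal protein of macrophages, had 15.7, 2.94, 9.02 and 2.27 CPM after LPS and 0.0107 to 0.0294 CPM uninjured (log2 8.65 ± 1.58, adjusted p = 0.00673). The T cell kinase gene Lck had 12.3, 3.79, 2.04 and 15.2 CPM after LPS and none uninjured (at least 666-fold higher), and no other T cell marker of the list is among the genes listed. The neuron, oligodendrocyte, Schwann cell and fibroblast sums did not overlap between the groups and the microglia sums did. A sum is weighted to its most abundant genes. The median log2 change was 0.95 over the neuron markers, -0.03 over the oligodendrocyte markers and -0.27 over the fibroblast and meningeal markers. Over the 8 microglia markers it was 2.58, the largest of these medians. In 4 of the 8 the groups did not overlap with LPS higher, and in 2 with LPS lower. Over all tested genes those shares were 14.6% and 12.7%. The part of any of these cells in the rises of complement, chemokine and class II genes was not tested. The Y-linked gene Ddx3y was read in all 7 libraries and Xist is not among the genes listed.

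**Figure D4:**
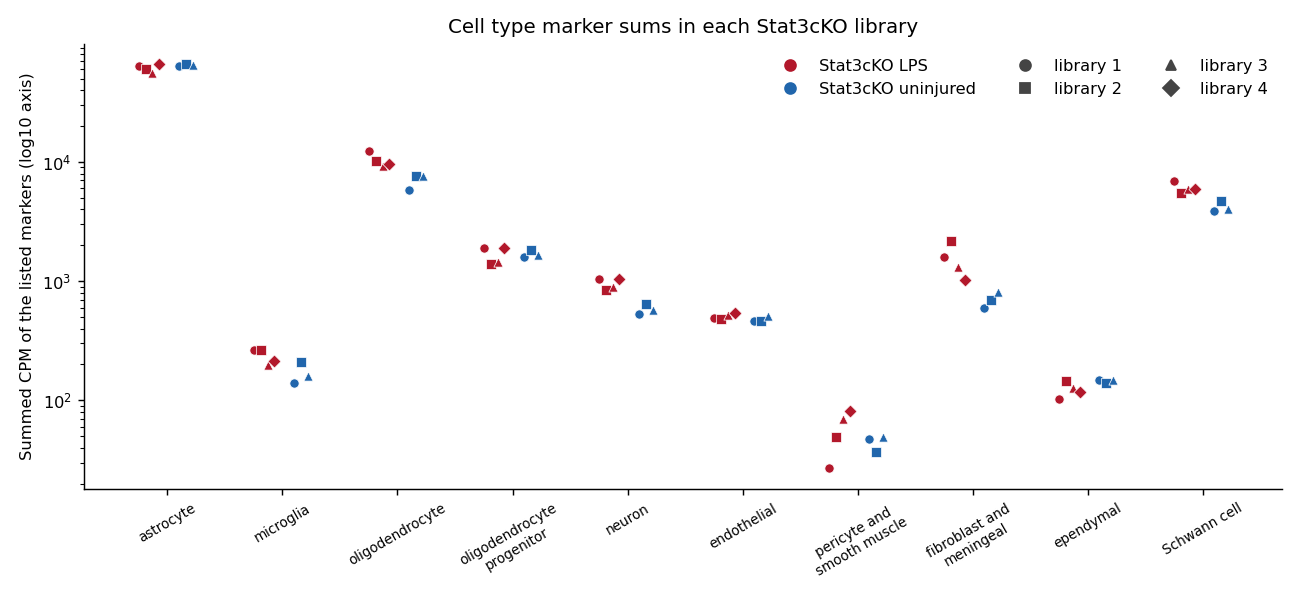
Summed CPM of the markers of each cell type (log10 axis) in each library, with the 4 Stat3cKO LPS libraries (red) left of the 3 Stat3cKO uninjured libraries (blue) and marker shapes for the library number; lists with 3 or more members tested are shown. Astrocyte markers summed to between 56239 and 66192 CPM in every library. The sums of neuron, oligodendrocyte, Schwann cell and fibroblast markers were higher in every LPS library than in any uninjured one, which does not hold for each marker.

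Whether the response differed from that of astrocytes with STAT3 was tested as the Stat3cKO log2 change minus the WT log2 change, over 10341 genes listed in both tables. At an adjusted p under 0.05, 39 genes differed (0.377%), 31 with a higher response in Stat3cKO (0.300%) and 8 with a lower one (0.0774%). Without adjustment 960 genes had a p under 0.05, and DESeq2 called 166. Without WT LPS library 3, 119 genes differed (86 higher and 33 lower). By contrast 14 to 19 genes differed without Stat3cKO LPS 1 or any 1 Stat3cKO uninjured library, and 60 without WT uninjured 4. In WT alone 163 of 10566 genes rose (1.54%) and 105 fell (0.994%) after LPS. The WT and Stat3cKO counts came in separate tables, and no label gives a batch, so a batch of either genotype cannot be told apart from the genotype itself.

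Several of the higher responses were those of interferon genes. WT levels are scaled over the 15 libraries of this fit and the Stat3cKO levels over their own 7, so levels set side by side between genotypes are approximate. Igtp had 32.0, 120.3, 105 and 52.5 CPM in WT LPS libraries 1 to 4 and 24.3, 29.9, 9.10 and 9.39 CPM in WT uninjured libraries 1 to 4. Its change was 6.81 on the log2 scale in Stat3cKO and 2.05 in WT, each fitted alone, and the difference, from a fit of all 4 groups together, was log2 4.72 ± 0.63, adjusted p = 0.00314. Ifit1 had 19.5, 6.50, 50.6 and 29.9 CPM in WT after LPS and 3.86, 3.95, 3.74 and 1.28 CPM in WT uninjured, and differed by log2 10.08 ± 1.18, adjusted p = 0.000995. Part of that difference lay in the uninjured libraries, where every Stat3cKO value was under every WT value. Ifit3 had 103, 73.9, 345 and 132 CPM in WT after LPS and 53.8, 52.7, 44.3 and 31.5 CPM in WT uninjured and differed by log2 3.83 ± 0.61, adjusted p = 0.0102. The checkpoint ligand gene Cd274 had 7.86, 18.6, 54.5 and 7.82 CPM in WT after LPS and 3.75, 11.96, 1.35 and 3.08 CPM in WT uninjured and differed by log2 7.68 ± 1.14, adjusted p = 0.00676. Every Stat3cKO LPS library lay above every WT LPS library in these 4 genes.

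Cxcl10 had 11.2, 2.75, 248 and 15.9 CPM in WT after LPS, with library 3 far above the others, and 5.65, 1.79, 0.593 and 6.61 CPM in WT uninjured, and differed by log2 8.86 ± 1.78, adjusted p = 0.033. Ifi44 differed by log2 10.11 ± 2.02, adjusted p = 0.033, Cmpk2 by log2 3.03 ± 0.50, adjusted p = 0.0115, Rnf19b by log2 3.85 ± 0.75, adjusted p = 0.0302, and Hopx by log2 1.96 ± 0.32, adjusted p = 0.0115. Cd68 differed by log2 7.89 ± 1.60, adjusted p = 0.0334, while its WT level was 6.11, 6.07, 9.74 and 4.29 CPM after LPS and 4.43, 4.74, 3.47 and 2.70 CPM uninjured. After LPS the genotypes overlapped for Cd68, with 15.7, 2.94, 9.02 and 2.27 CPM in Stat3cKO. Its difference lay in the uninjured libraries, where Stat3cKO had only 0.0107 to 0.0294 CPM. Calls lost on leaving out 1 of the 15 libraries (those libraries; highest adjusted p) were Cmpk2 (Stat3cKO uninjured 3; up to 0.0509), Cxcl10 (Stat3cKO LPS 1, 4 and Stat3cKO uninjured 1, 2, 3 and WT LPS 1, 4 and WT uninjured 1; up to 0.159), Ifi44 (Stat3cKO LPS 1, 2 and Stat3cKO uninjured 1, 2, 3 and WT LPS 1, 4 and WT uninjured 3; up to 0.159), Cd68 (Stat3cKO LPS 1, 3 and Stat3cKO uninjured 1, 2, 3 and WT LPS 1, 2, 4; up to 0.16), Rnf19b (Stat3cKO LPS 1, 4 and Stat3cKO uninjured 1, 2, 3 and WT LPS 1, 2, 4 and WT uninjured 1, 3; up to 0.117) and Hopx (Stat3cKO uninjured 3; up to 0.0509).

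Of the lower responses, Lcn2 and Serpina3n are secreted acute phase proteins. Lcn2 had 243, 1662, 620.4 and 536 CPM in WT LPS libraries and 0.189, 0.135, 0.0741 and 0.153 CPM in WT uninjured libraries. It rose in each genotype, by 7.46 on the log2 scale in Stat3cKO and 12.37 in WT, and the responses differed by log2 -4.95 ± 1.00, adjusted p = 0.0334. Serpina3n had 2658, 7683, 5651 and 4007 CPM in WT after LPS and 49.3, 183, 132 and 88.3 CPM in WT uninjured, and the responses differed by log2 -2.75 ± 0.49, adjusted p = 0.0196. All WT LPS libraries were above all Stat3cKO LPS libraries for both genes. Lgi4, which fell in Stat3cKO, had 507, 689, 150.4 and 631 CPM in WT after LPS and 343, 286, 273 and 311 CPM in WT uninjured (log2 -2.37 ± 0.48, adjusted p = 0.0334). Slc14a2, Frem2 and Cnr1 differed by -12.71, -11.85 and -11.51. In the WT uninjured libraries Slc14a2 was at 0 in all 4, and Frem2 and Cnr1 in 3 of the 4. Zfp322a differed by -10.66, with no more than 1 count in any Stat3cKO LPS library. Fitted differences of such genes depend on the small count added before taking logs. Calls lost on leaving out 1 of the 15 libraries were Lcn2 (Stat3cKO LPS 1, 2, 4 and Stat3cKO uninjured 3 and WT LPS 2, 4 and WT uninjured 1, 2, 3, 4; up to 0.407), Serpina3n (Stat3cKO LPS 1 and Stat3cKO uninjured 1; up to 0.0549), Lgi4 (Stat3cKO LPS 1, 2, 4 and Stat3cKO uninjured 1, 2, 3 and WT LPS 1, 2, 4 and WT uninjured 1, 2, 3, 4; up to 0.0962), Frem2 (Stat3cKO LPS 2, 3, 4 and Stat3cKO uninjured 1, 2, 3 and WT LPS 1, 2 and WT uninjured 1, 3, 4; up to 0.0805) and Cnr1 (Stat3cKO LPS 1 and Stat3cKO uninjured 1 and WT LPS 4; up to 0.0578).

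For most other genes named above the difference missed the threshold. Socs3 stood at log2 4.47 in Stat3cKO and 5.49 in WT, a difference of log2 -1.05 ± 1.98, adjusted p = 0.946. The difference was log2 5.998 ± 1.51, adjusted p = 0.0967 for Osmr. It was log2 0.72 ± 0.17, adjusted p = 0.0745 for Gfap and log2 -0.65 ± 0.32, adjusted p = 0.555 for Vim. For Stat3 it was log2 2.45 ± 0.58, adjusted p = 0.0739, for Aqp4 log2 -0.44 ± 0.27, adjusted p = 0.683, for Gja1 log2 -0.41 ± 0.20, adjusted p = 0.552 and for Fasn log2 -1.32 ± 0.40, adjusted p = 0.209. Among 17 antiviral effectors tested in both genotypes, 7 differed and all 7 were higher in Stat3cKO, with a median difference of 2.18. In class I antigen presentation 3 of 13 differed, all higher in Stat3cKO. Of the 75 oxidative phosphorylation genes 1 differed, with a median change of 0.28 in Stat3cKO and -0.43 in WT. In the pan-reactive list 1 response was higher in Stat3cKO, that of Cxcl10, and 2 were lower, those of Lcn2 and Serpina3n. A difference that missed the threshold does not show that the genotypes responded alike.

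**Figure D5:**
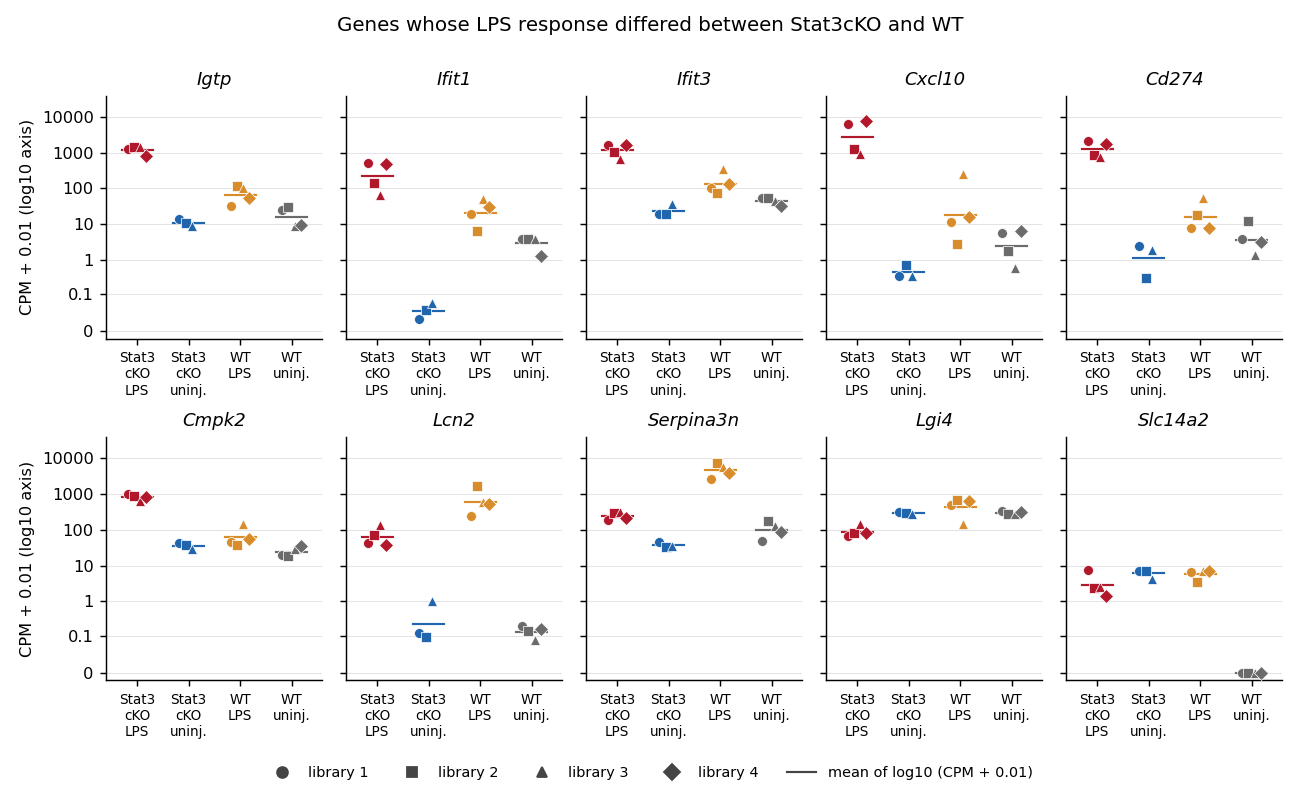
Level of 10 genes whose LPS response differed between genotypes, in Stat3cKO LPS (red), Stat3cKO uninjured (blue), WT LPS (orange) and WT uninjured (grey) libraries; the axis is log10 of CPM + 0.01, marker shapes give the library and bars the mean of log10 (CPM + 0.01). Interferon genes such as Igtp and Ifit3 were highest in the Stat3cKO LPS libraries, and Lcn2 and Serpina3n in the WT LPS libraries.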

How the data were processed

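RNA bound to HA-tagged ribosomes was sequenced from thoracic spinal cord with 50 bp paired-end reads, per the labels' protocols. The authors deposited raw read counts per gene, 1 column per library, beside their own log2 fold changes and false discovery rates (adjusted p-values). Build mm10 and the tools HTSeq 0.6.0, STAR 2.4.0j and edgeR 3.28.0 appear in the submitters' processing notes, without roles. How genes were chosen for the tables, how reads with several matches were treated and whether counting used strand are not given in the sources used here, so values of close paralogs (Gbp, Irgm and Tgtp genes, H2-Q and H2-T genes, Mt1 and Mt2, Serpina3 genes, ribosomal proteins) and of overlapping genes are uncertain. In the deposited Stat3cKO counts, 20 symbols had turned into dates.

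From the counts, 4 Stat3cKO LPS and 3 Stat3cKO uninjured libraries were compared with edgeR 4.0.16 (limma 3.58.1, R 4.3.3): TMM scaling, filterByExpr, quasi-likelihood test, Benjamini-Hochberg adjusted p under 0.05 over 11709 genes. The difference from WT was the interaction in a fit of 15 libraries over 10341 genes. Levels are TMM-scaled CPM. Against 0 uninjured counts, a fold is a lower bound from a floor of 3 counts over the group. Intervals (95%) and floors cover counting error only. At 62803836 to 91419161 counts a library, 1 count is under 0.02 CPM. The scripts were tested on simulated counts.

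Named genes were the 8 largest rises (uninjured mean of at least 10 CPM) and 8 largest falls (LPS mean of at least 1 CPM) by log2 change among called genes whose groups did not overlap, and the 4 largest gains and 4 largest losses in CPM. To these were added the 2 largest changes of each functional list with the largest in the opposite direction, the most abundant gene of each marker list, 9 fixed genes, and the 5 largest differences from WT in each direction. The members and lists were chosen with earlier results of these data known. Other list members were named after their values were seen. Alternatives were RLE and upper-quartile scaling, other filters, DESeq2 1.42.0, a spread shared with WT libraries, a minimum change of log2 1, and leaving out each library. Promoters came from RefSeq (GRCm38.p6). Libraries of other conditions were not used here, and values of some genes are not reported here.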

Additional observations from a re-analysis of the deposited data

Results flagged for a closer look

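In the Stat3cKO LPS group 4 of 139 named genes had 1 library set apart from the other 3 by a gap past Dixon's 95% critical value, where chance gives about 1 in 20. Wnt7a was at 38.4 CPM in LPS 3, with the others between 14.2 and 17.4. Fasn was at 120.0 CPM in LPS 1, with the others between 210.1 and 222. Psmb9 was at 101 CPM in LPS 4, with the others between 147 and 155. Hes5 was at 0.0125 CPM in LPS 4, a single count, and at 0 in the others.

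For 17 named genes the Stat3cKO response differed from the WT response in the interaction test. The log2 difference was positive for Ifi44 (10.11), Ifit1 (10.08), Cxcl10 (8.86), Cd68 (7.89), Cd274 (7.68), Igtp (4.72), Rnf19b (3.85), Ifit3 (3.83), Cmpk2 (3.03) and Hopx (1.96). It was negative for Slc14a2 (-12.71), Frem2 (-11.85), Cnr1 (-11.51), Zfp322a (-10.66), Lcn2 (-4.95), Serpina3n (-2.75) and Lgi4 (-2.37). Of the 17, 6 were called in every fit without 1 library: Cd274, Ifit1, Ifit3, Igtp, Slc14a2 and Zfp322a.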

How the results depend on the processing

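No paired analysis was possible because the labels give the libraries no shared replicate numbers. The 1237 calls (834 rises and 403 falls) became 1217 with RLE size factors, 1230 without a filter, 1223 with a mean of at least 1 CPM and 1294 with upper-quartile scaling (722 rises and 572 falls). DESeq2 gave 1730, with 1125 rises and 605 falls. A spread shared with the WT libraries gave 702 (479 and 223), and a test against a change of log2 1 gave 296 (271 and 25). Leaving out 1 library gave 657 to 1275 calls, 508 to 836 rises and 148 to 439 falls. The difference from WT, 39 genes, was 39 with RLE size factors and without a filter, and 166 with DESeq2 (125 higher and 41 lower). Leaving out 1 library gave 14 to 119 genes, 10 to 86 higher and 3 to 33 lower. Of 131 named genes called after LPS, 89 were called in every fit without 1 library, 112 in every other setting but the test against log2 1, and 63 lost their call in that test. Of the 19 that lost their call in those other settings, 17 did with a spread shared with the WT libraries and 4 with upper-quartile scaling, and all but Mtfp1 (adjusted p = 0.112 with the shared spread) also lost it without 1 library. Directions turned only for named genes that were not called: Slc2a1 with upper-quartile scaling (log2 -0.0427), Map2 without LPS 1 or uninjured 2 (-0.16 to 0.095 over the fits without 1 library), and Pdgfrb without LPS 1 (-0.59 to 0.14). The causes were not tested. The authors' deposited table has 1621 genes at a false discovery rate under 0.05 (1060 higher and 561 lower), 1222 of them among the 1237. Apoe and Clu, called here as falls, are not among the 1222 (false discovery rates 0.253 and 0.0957). Both also lost their call with the shared spread (adjusted p = 0.0820 and 0.0855).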
